A study of Homo sapiens with 4 samples.

Results

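The 9563 genes described here were selected on their RNA-seq counts, 200 or more in both of 2 libraries of H1975 cells, 1 kept in hypoxia and 1 in normoxia, out of 15562 genes in the deposited count table. They make up 61.5% of the genes and hold 98.4% of the counts of each library. For each gene the level was its CPM, its counts scaled to the library's total, and the difference was the CPM ratio of hypoxia over normoxia, given as a log2 ratio. H1975 is an established human lung adenocarcinoma line that carries a mutated EGFR gene, and the labels give the genotype of both groups as WT. The hypoxic cells spent 24 h in a gas mixture of 1% O2, 5% CO2 and 94% N2, and the labels call the other group normoxia, in the line's normal culture with 5% CO2, without an oxygen share. The study set hypoxia beside normoxia to find which transcripts differ. There is 1 library per condition from 1 cell line and no replicate, so the 95% intervals below cover counting error only, no p-value was computed, and a difference describes these 2 libraries.

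Cells sense oxygen through prolyl hydroxylases of the EGLN family, which need oxygen to mark the alpha subunits of hypoxia-inducible factors (HIF) for destruction by the VHL ubiquitin ligase. When oxygen is short the alpha subunits persist, pair with ARNT and bind a short core motif, the hypoxia response element, in the control regions of their targets. Known targets take up glucose, run glycolysis, limit mitochondrial respiration, remove mitochondria, slow mTORC1 signalling and recruit blood vessels. The alpha subunits are regulated mainly as proteins, and their mRNA need not follow them.

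Total depth was 17643836 counts for normoxia and 18943320 for hypoxia, and the median gene of the set had 878 and 936 counts. At 200 counts on each side the counting interval of an unchanged ratio runs from 0.818 to 1.22. Of 17 lung epithelial markers 10 were well counted, among them the keratins KRT7, KRT8, KRT18 and KRT19 and the lung lineage factor NKX2-1. The other 7 (SFTPB, SFTPC, SFTPD, NAPSA, SLC34A2, CEACAM6 and FOXA1) had under 200 counts in at least 1 library. The summed level over all 17 was 10188 CPM in normoxia and 9351 in hypoxia. Markers of other cell types were sparse. None of the 7 endothelial markers in the table reached 200 counts (summed CPM 7.76 and 7.55), while COL1A1 and COL1A2 of the fibroblast markers and CD14 and CD68 of the leukocyte markers did. The summed levels were 117 and 121 CPM over 9 fibroblast markers and 253 and 248 CPM over 7 leukocyte markers. The rule's limit left out 5999 genes, of which 290 had 200 counts in 1 library alone. The 6 genes whose smaller count was exactly 200 had log2 ratios from -0.42 (VDR) to 0.21 (MINDY4), and the 10 genes whose smaller count was 199 had log2 ratios from -0.31 (CPT1C) to 0.19 (TUBD1).

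Most of the well-counted transcriptome was alike in the 2 libraries. The median log2 ratio was -0.0057, and 99.7% of the genes lay within 1.5-fold and 93.2% within 1.2-fold of each other. The SD of the log2 ratios was 0.15, against 0.078 that counting error alone gives for these counts. Calls required at least 1.5-fold in either direction with 1 outside the interval. By this rule 20 genes were higher in hypoxia (0.209% of 9563) and 7 were lower (0.0732%), 0.282% in either direction. At 1.2-fold the same rule gave 296 higher (3.10%) and 354 lower (3.70%), 6.80% in either direction, and at 2-fold 2 higher (0.0209%) and 0 lower. With no fold required, the interval excluded 1 for 32.7% of genes, 15.0% above and 17.6% below, and 47.9% of log2 ratios were above 0 and 52.1% below. The plot of ratio against level shows the called genes standing clear of the rest, on the higher side mostly at mid levels and on the lower side led at high level by CCN1.

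**Figure D1:**
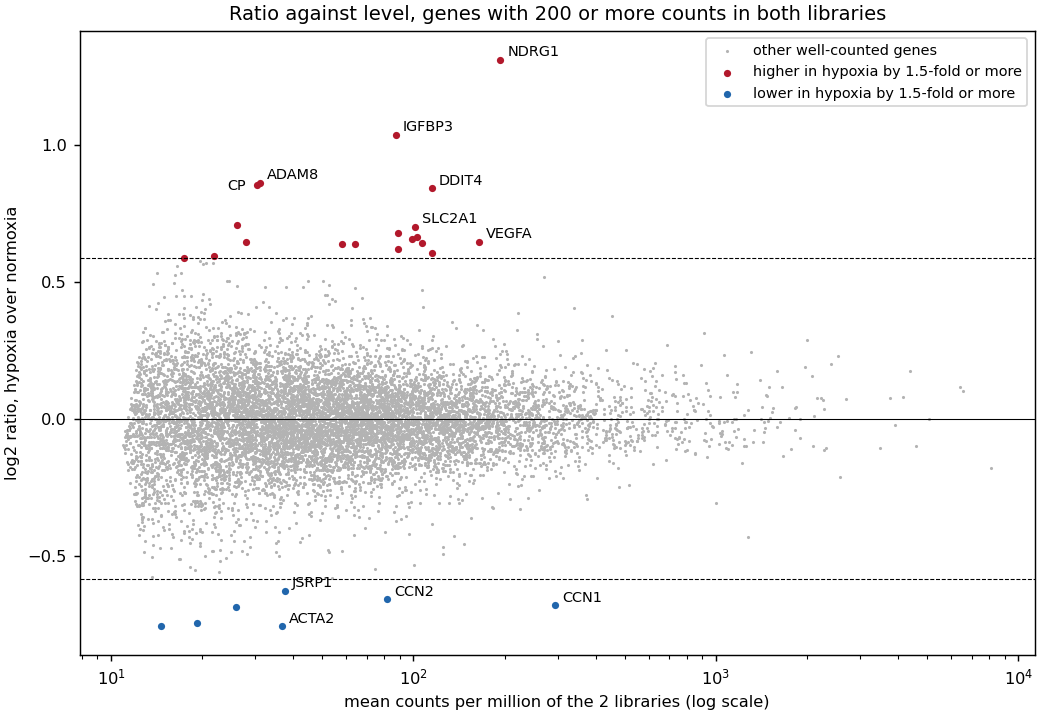
Log2 ratio of hypoxia over normoxia (vertical axis) against the mean CPM of the 2 libraries (horizontal axis, log scale). Each point is 1 well-counted gene, without the second-copy entry described in the text; the dashed lines mark 1.5-fold. NDRG1 at 1.31 and IGFBP3 at 1.03 lie furthest above, and ACTA2 at -0.76 furthest below.

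Of the 20 genes called higher, 1 is the second-copy entry of a gene present on both sex chromosomes and is not described further. Of the other 19, 9 belong to a list of known HIF targets and 10 do not. Among those described here, length-scaled levels in hypoxia ran from 2.38 FPKM for DNAH11 to 84.5 FPKM for DDIT4. The interval lay wholly beyond 1.5-fold for 6 of the 19 (NDRG1, IGFBP3, ADAM8, CP, DDIT4 and SLC2A1), so for these the size itself is above the limit within counting error.

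The HIF targets among them have roles in several branches of the hypoxic response. For NDRG1, known for its response to cell stress, 1958 normoxic and 5214 hypoxic counts gave the highest ratio of the set at 2.48 (log2 1.31, 1.24 to 1.39). DDIT4, which restrains mTORC1, had 1452 and 2793 counts (log2 0.84, 0.75 to 0.93). Glucose handling was represented by 3 genes. The glucose transporter SLC2A1 had 1361 and 2373 counts (log2 0.70) and its relative SLC2A3 1351 and 2288 (0.66), the latter uncertain because SLC2A14 is nearly identical in sequence. HK2, the hexokinase that commits glucose to metabolism, had 1408 and 2392 counts (0.66). BNIP3, a receptor that marks mitochondria for removal, had 1469 and 2462 counts (0.64), and VEGFA, the main angiogenic growth factor, 2268 and 3808 (0.65). The oxygen-sensing hydroxylase EGLN3 had 1233 and 2036 counts (0.62), and the secreted glycoprotein hormone STC1 had 886 and 1481 (0.64). From SLC2A1 to EGLN3 these ratios lay between 1.54 and 1.62, with overlapping intervals, so their order cannot be told from counting error.

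Those called higher outside the list have varied roles, and absence from the list does not mean that a gene is no HIF target. IGFBP3, which binds insulin-like growth factors outside the cell, had 1010 counts in normoxia and 2222 in hypoxia, a ratio of 2.05 (log2 1.03, 0.93 to 1.14). The membrane protease ADAM8 had 388 and 757 counts (log2 0.86, 0.68 to 1.04). Ceruloplasmin (CP), a copper-bearing ferroxidase that helps iron leave cells, had 381 and 739 (0.85, 0.67 to 1.04). PLIN2, the coat protein of lipid droplets, had 1208 and 2074 counts (0.68, 0.57 to 0.78). The arrestin-like adaptor ARRDC3 had 805 and 1343 (0.64), and the matricellular protein CCN5 had 1615 and 2639 (0.61). Lower in level were the axonemal dynein DNAH11 with 385 and 646 counts (0.64) and IL17RD, an inhibitor of growth factor signalling, with 309 and 501 (0.59). The complement gene C4A had 349 and 611 (0.71), but it is nearly identical to C4B, which had 404 and 503 (0.21, 0.02 to 0.41), so how reads were split between this pair bears on both values.

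**Figure D2:**
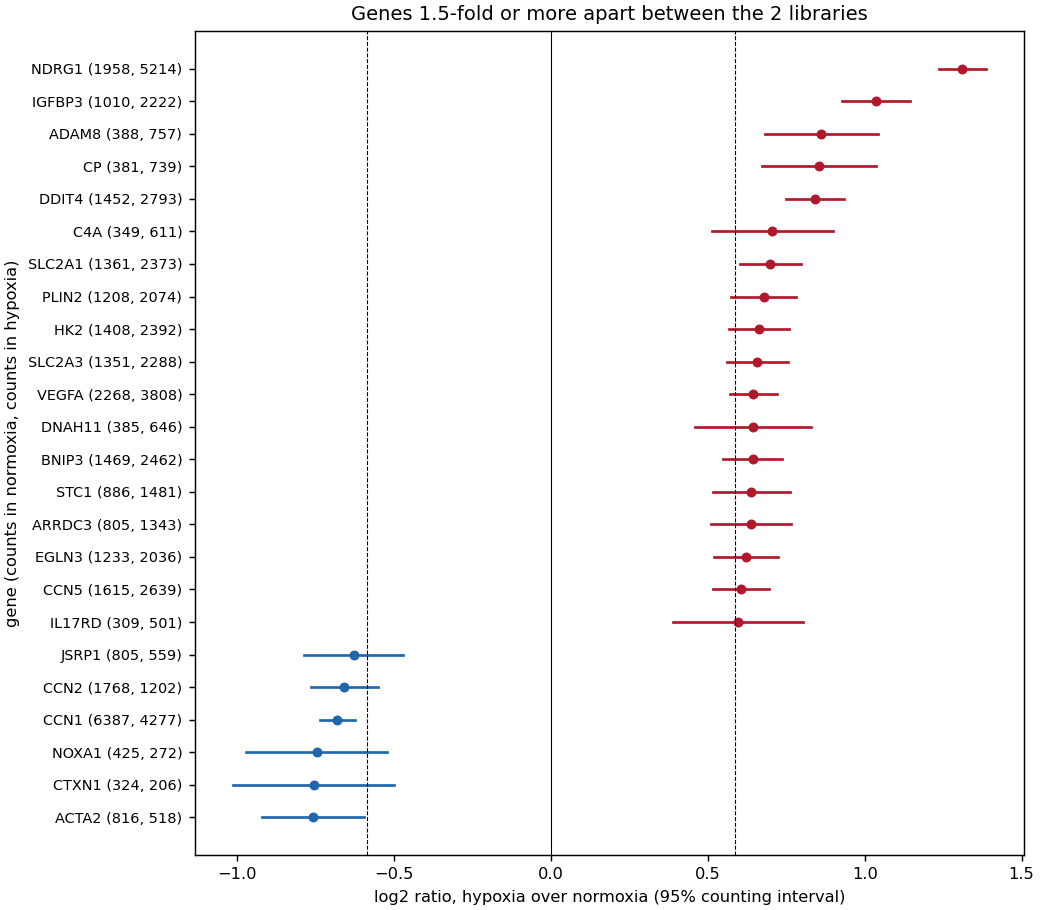
Log2 ratio (horizontal axis) with its 95% counting interval for 24 genes that passed the 1.5-fold rule, 18 higher and 6 lower; the counts in normoxia and hypoxia stand beside each symbol. No interval reaches 0, and the intervals of 8 genes lie wholly beyond the dashed 1.5-fold lines.

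The genes called lower included ACTA2, CTXN1, NOXA1, CCN1, CCN2 and JSRP1. CCN1, a matricellular protein and target of YAP and SRF signalling, had by far the most counts of them, 6387 in normoxia and 4277 in hypoxia, 1.60-fold lower (log2 -0.68, -0.74 to -0.62). Its relative CCN2 had 1768 and 1202 counts, 1.58-fold lower (log2 -0.66). ACTA2, the smooth muscle actin, had 816 and 518 counts, 1.69-fold lower (log2 -0.76, -0.92 to -0.60). CCN1 and CCN2 thus lay on the opposite side from CCN5 of the same family, with intervals far apart. The others had fewer counts. NOXA1, which activates an NADPH oxidase, had 425 and 272 counts (-0.75), the small membrane protein CTXN1 324 and 206 (-0.76) and JSRP1, a protein of the muscle calcium store, 805 and 559 (-0.63). Only ACTA2 and CCN1 of the 7 had an interval wholly beyond 1.5-fold.

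Of 26 called genes, 5 overlap another measured gene in the RefSeq annotation (GRCh38.p14), and the use of strand in counting is not stated in the labels or headers. ACTA2 (chromosome 10, 88935074 to 88991337) overlaps FAS, which was at 0.03 on 210 and 230 counts. BNIP3 overlaps PPP2R2D at -0.07, DNAH11 overlaps CDCA7L at -0.00, CP overlaps HPS3 at 0.27 (2054 and 2653 counts), and NOXA1 overlaps ENTPD8, which was not well counted. The overlapping genes with a value lay nearer to 0 than their partners in each case. The partners were picked for large ratios, so nearly any other well-counted gene would do so, and this order says nothing about overlap. Whether reads of overlapping genes bear on the called values was not tested.

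Just short of 1.5-fold the higher side held PPP1R3C, a glycogen-targeting subunit of a phosphatase, with 294 and 468 counts (0.57), the calcium-binding protein S100A9 with 287 and 456 (0.57) and the cholesterol exporter ABCA1 with 236 and 373 (0.56). The Notch ligand DNER had 278 and 445 (0.58), and the zinc finger gene ZNF350 309 and 492 (0.57). The lower side held SEMA6B, a guidance semaphorin, with 1141 and 819 counts (-0.58), the small GTPase RAC3 with 288 and 207 (-0.58) and DUSP5, a phosphatase that acts on ERK, with 1566 and 1151 (-0.55). AMOTL2 and FJX1, both known YAP targets, had 2102 and 1560 counts (-0.53) and 382 and 282 counts (-0.54). Also among the 25 lowest were ACTG2, another smooth muscle actin (352 and 265, -0.51), the NRF2 target OSGIN1 (347 and 261, -0.51), the AP-1 subunit FOSL1 (2579 and 1969, -0.49) and the adenosine receptor ADORA2A (497 and 375, -0.51).

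Promoters of called genes are shown because HIF binds a core of ACGTG or GCGTG, and so the stretches let the presence or absence of these letters be read beside the ratios. Each is the 250 bases before the RefSeq start site (GRCh38.p14), 5′ to 3′ on the gene's strand, in lower case, with every ACGTG or GCGTG on either strand in capitals, where matches may overlap. The first 5 genes were called higher and have matches, SLC2A1 was called higher and has none in this stretch, CCN2 was called lower and has none, and NOXA1 was called lower and has matches.
IGFBP3 (chr7:45921273-45921522, minus strand): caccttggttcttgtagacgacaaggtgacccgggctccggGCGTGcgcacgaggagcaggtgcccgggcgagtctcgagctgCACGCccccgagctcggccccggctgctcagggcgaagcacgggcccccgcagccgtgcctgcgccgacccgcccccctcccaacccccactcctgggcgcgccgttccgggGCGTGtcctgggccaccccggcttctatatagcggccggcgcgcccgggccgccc
DDIT4 (chr10:72273674-72273923, plus strand): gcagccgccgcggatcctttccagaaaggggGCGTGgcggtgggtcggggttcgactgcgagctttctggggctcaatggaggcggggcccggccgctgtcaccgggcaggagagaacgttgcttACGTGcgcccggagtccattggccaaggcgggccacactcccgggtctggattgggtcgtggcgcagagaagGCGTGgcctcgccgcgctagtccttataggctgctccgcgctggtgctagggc
PLIN2 (chr9:19127493-19127742, minus strand): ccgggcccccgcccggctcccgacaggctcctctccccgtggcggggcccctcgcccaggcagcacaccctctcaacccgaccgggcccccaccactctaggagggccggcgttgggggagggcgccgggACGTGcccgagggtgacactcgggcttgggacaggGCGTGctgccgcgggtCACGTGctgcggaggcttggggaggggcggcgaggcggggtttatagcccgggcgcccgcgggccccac
HK2 (chr2:74833877-74834126, plus strand): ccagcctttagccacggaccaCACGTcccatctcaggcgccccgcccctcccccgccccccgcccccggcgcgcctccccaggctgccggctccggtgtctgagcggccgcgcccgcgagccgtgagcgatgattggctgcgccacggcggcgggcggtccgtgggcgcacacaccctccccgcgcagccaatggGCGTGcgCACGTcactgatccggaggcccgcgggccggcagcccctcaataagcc
BNIP3 (chr10:131981924-131982173, minus strand): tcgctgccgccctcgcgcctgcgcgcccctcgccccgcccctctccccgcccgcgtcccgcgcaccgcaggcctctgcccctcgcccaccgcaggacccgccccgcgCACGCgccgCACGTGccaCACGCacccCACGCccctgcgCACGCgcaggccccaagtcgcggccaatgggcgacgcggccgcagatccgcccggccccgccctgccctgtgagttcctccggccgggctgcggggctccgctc
SLC2A1 (chr1:42958869-42959118, minus strand): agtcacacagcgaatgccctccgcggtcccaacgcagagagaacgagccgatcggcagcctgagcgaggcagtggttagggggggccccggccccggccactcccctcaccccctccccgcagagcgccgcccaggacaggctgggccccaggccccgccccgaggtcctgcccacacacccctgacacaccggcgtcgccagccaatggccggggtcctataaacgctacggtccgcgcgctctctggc
CCN2 (chr6:131951373-131951622, minus strand): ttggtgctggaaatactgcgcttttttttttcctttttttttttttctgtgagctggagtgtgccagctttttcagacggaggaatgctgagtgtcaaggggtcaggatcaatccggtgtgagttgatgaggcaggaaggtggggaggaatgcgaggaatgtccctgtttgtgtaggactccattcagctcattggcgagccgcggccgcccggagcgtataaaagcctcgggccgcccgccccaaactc
NOXA1 (chr9:137423143-137423392, plus strand): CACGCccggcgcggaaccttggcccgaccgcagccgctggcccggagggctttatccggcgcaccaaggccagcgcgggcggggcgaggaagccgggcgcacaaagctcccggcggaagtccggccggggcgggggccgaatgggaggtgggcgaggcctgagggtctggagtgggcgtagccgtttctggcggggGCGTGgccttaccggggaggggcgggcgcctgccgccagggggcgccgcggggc

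These stretches hold 3 core matches in IGFBP3, 3 in DDIT4, 4 in PLIN2, 3 in HK2, 6 in BNIP3 and 2 in NOXA1. The same stretches of ADAM8, ARRDC3 and EGLN3, called higher, hold none, as do those of CTXN1 and the first start of ACTA2, called lower, while the second start of ACTA2 has 1. Over full RefSeq windows of 300 bases (250 before to 50 after a start), 12 of the 20 genes called higher have a window and 11 of their 16 windows held a core (68.8%), against 2 of 5 windows of those called lower (40.0%), 62.2% of the 11653 windows of well-counted genes and 48.4% of the 35116 windows of the RefSeq table. For the well-counted HIF targets it was 50 of 65 windows (76.9%). The longer form ACGTGC was in 5 of the 16 windows of genes called higher (31.3%) and in 8.79% of windows of well-counted genes. At 1.2-fold the share with a core was 56.9% of 376 windows on the higher side and 57.1% of 380 on the lower side, both below the share of all well-counted genes. ACGTGC was in 11.4% of the 1.2-fold higher windows and 6.58% of the lower ones. The E2F motif TTTCGCG was in 1.06% of the 1.2-fold higher windows and in 2.89% of the lower ones, against 2.17% of windows of well-counted genes, and the TEAD motif GGAATG, like the others on either strand, in 8.78%, 13.2% and 11.4% in the same order. Windows of 1 gene share sequence, the share of G and C differs between the groups (median 71.8% for genes called higher, 55.0% for those called lower, 64.0% and 67.7% at 1.2-fold and 65.3% for all well-counted genes), its part in these shares was not tested, and a match is a description of letters, not of binding.

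The known HIF targets as a list lay above the rest. Well counted were 48 of 59 listed. The ratio exceeded 1 for 41 of these and its interval cleared 1 for 40, against 47.9% and 15.0% of all well-counted genes. At 1.2-fold 28 were higher and 0 lower (3.10% and 3.70% of all genes), and at 1.5-fold 9 were higher (0.209%). Their median log2 ratio was 0.31, against -0.0057 over all 9563. Between the called genes and the middle of the list stood MXI1, a repressor that competes with MYC (655 and 996 counts, 0.50), the carbonic anhydrase CA9 (731 and 1112, 0.50), the collagen prolyl hydroxylase P4HA1 (1628 and 2318, 0.41) and the histone demethylase KDM3A (965 and 1313, 0.34). Not every listed target was higher. P4HA2 (1343 and 1439), CITED2 (3158 and 3382), PFKP (4847 and 5189) and HK1 (4770 and 5093) lay within 0.01 of 0. MIF, an inflammatory cytokine, was at -0.16 (-0.20 to -0.13) on 11573 and 11092 counts. In the pathway annotation the authors deposited, the HIF-1 signaling pathway, which also holds upstream kinases and receptors, had 39 of 70 well-counted genes above 0 and a median of 0.03. The list is a textbook one chosen with earlier results of these data known, so its direction is not independent evidence. Some of its genes are counted again in lists below, among them EGLN3, EGLN1, SLC2A1, HK2, CA9, CA12, P4HA1 and LOX.

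The oxygen-sensing machinery itself differed by member. Of 14 well-counted genes of HIF subunits and hydroxylases the median was 0.0062, and EGLN3 and EGLN1 were the 2 past 1.2-fold (6.80% of all genes). EGLN1, the main HIF prolyl hydroxylase in most cells, had 1555 counts in normoxia and 2017 in hypoxia (0.27, 0.18 to 0.37), while the related EGLN2 had 394 and 365 (-0.21, -0.42 to -0.00). The co-activator EP300 was at 0.19 (0.10 to 0.29) and CREBBP at 0.12 (0.03 to 0.21). The transcripts of HIF1A (7819 and 8065 counts), EPAS1 (4690 and 4859) and ARNT (736 and 809) lay between -0.06 and 0.03, and VHL, CUL2 and HIF1AN lay between 0.00 and 0.01.

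Most genes of glycolysis and glucose uptake lay above 0. Of 26 well-counted members 21 lay above 0 (47.9% of all genes), the interval of 19 was wholly above 0 (15.0%), 9 were higher by 1.2-fold (3.10%) and 0 lower, and the median was 0.14. The broader glycolysis and gluconeogenesis pathway of the deposited annotation had 26 of 41 above 0, the interval of 15 wholly above 0 and a median of 0.03. The highest were SLC2A1, HK2 and SLC2A3, which like PGK1 and ENO1 also belong to the HIF target list, so these lists are not separate. Next came ENO2, an enolase isozyme (773 and 1135 counts, 0.45), the regulator PFKFB4 (808 and 1173, 0.44) and PDK1, the kinase that blocks entry of pyruvate into mitochondria (504 and 717, 0.41). The abundant enzymes moved little in ratio but with narrow intervals. PGK1 had 14322 and 19123 counts (0.31, 0.28 to 0.35), LDHA, which makes lactate, 41243 and 51944 (0.23, 0.21 to 0.25), and GAPDH 71389 and 81047 (0.08, 0.07 to 0.10). Isozymes parted within families, with HK2 at 0.66 and HK1 at -0.0080, ENO2 at 0.45 and ENO1 at 0.08, LDHA at 0.23 and LDHB at -0.08 (-0.12 to -0.04). Glycogen genes had a median of 0.12 over 11, led by PPP1R3C and the branching enzyme GBE1 (1242 and 1629 counts, 0.29), with the phosphatase subunit PPP1R3D lowest (255 and 231, -0.25, -0.51 to 0.02).

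Mitochondrial energy genes showed small, mostly negative ratios. Of 72 well-counted nuclear genes of oxidative phosphorylation 66 lay below 0 (52.1% of all genes), the interval of 29 was wholly below 0 (17.6%) and that of 1 (COX6B1, 0.11) wholly above, but 0 passed 1.2-fold in either direction and the median was -0.08. The complex I subunits NDUFA12 (605 and 543 counts, -0.26) and NDUFA2 (1271 and 1149, -0.25) were lowest. These genes are short, with a median length of 1194 bases implied by the FPKM against 4061 over all well-counted genes, and with the trend of the ratio over gene length removed their median was -0.019. The tricarboxylic acid cycle genes did not share the direction, with 14 of 25 above 0 (47.9% of all genes), a median of 0.0075 and SUCLG1 lowest (1719 and 1586 counts, -0.22).

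Among genes of lipids and iron the highest values were single genes rather than groups. Cholesterol synthesis genes had a median of -0.05 over 24. TM7SF2 (911 and 765 counts, -0.35), MVD (3575 and 3070, -0.32) and MVK (1227 and 1096, -0.27) were lower by 1.2-fold (3.70% of all genes) and 0 were higher. Of the 23 well-counted fatty acid and lipid storage genes PLIN2 stood alone past 1.2-fold (6.80% of all genes). It was followed by the desaturase SCD, one of the most counted transcripts (39569 and 48812 counts, 0.20). In the iron list CP was highest, and the interval of the transferrin receptor TFRC lay below 0 (4245 and 3843 counts, -0.25, -0.31 to -0.18). In the list of carbonic anhydrases and acid export, of 12 well-counted genes CA9 at 0.50 and CA12 at 0.30 (1835 and 2428 counts) were the 2 past 1.2-fold (6.80% of all genes). The lactate exporter SLC16A3 was at 0.16.

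Some genes of growth factor, YAP and SRF signalling lay on the lower side of the distribution. The broader pathways of the deposited annotation had medians near 0. These were -0.0041 for MAPK signaling (177 genes), 0.0045 for Hippo signaling (93) and 0.0083 for regulation of the actin cytoskeleton (132). Of 22 well-counted immediate early genes, which respond within minutes to growth signals, 15 lay below 0 (52.1% of all genes) and 7 were lower by 1.2-fold (3.70%), with 0 higher, and the median was -0.13. JUN had 3008 counts in normoxia and 2350 in hypoxia (-0.46, -0.54 to -0.38), MYC 19467 and 16870 (-0.31, -0.34 to -0.28) and EGR1 7268 and 6365 (-0.29). JUNB went the other way, with 5780 and 7331 counts (0.24, 0.19 to 0.29), so AP-1 subunits differed in direction, FOSL1 and JUN being low and JUNB high. Of 17 feedback and output genes of the ERK pathway 6 were lower by 1.2-fold (3.70% of all genes) and 0 higher, with a median of -0.16. They included DUSP5, FOSL1, the receptor EPHA2 (1957 and 1571 counts, -0.42) and the cyclin CCND1 (7178 and 6356, -0.28), while DUSP6, another ERK phosphatase, was at 0.04 (358 and 394 counts). EGFR, which lies upstream of this pathway, had 4057 and 5335 counts (0.29, 0.23 to 0.35), and its ligand HBEGF 515 and 395 (-0.49, -0.68 to -0.29).

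The YAP and TEAD list was split rather than shifted. Its median was -0.0098 over 23. At 1.2-fold 5 were lower (3.70% of all genes), CCN1, CCN2, FJX1, AMOTL2 and F3, and 1 was higher (3.10%), IGFBP3. CCN1 is also counted among the immediate early genes, so these lists are not separate. YAP1 itself had 2657 and 3092 counts (0.12, 0.04 to 0.19) and TEAD1 1828 and 2141 (0.13, 0.03 to 0.22). Of 32 SRF and actin genes 25 lay below 0 (52.1% of all genes), the interval of 17 was wholly below 0 (17.6%) and the median was -0.10. After ACTA2 came the myosin light chain MYL9 (4640 and 4080 counts, -0.29) and PDLIM7 (2262 and 2001, -0.28). ACTB, the gene with the most counts, had 152366 and 144278 (-0.18, -0.19 to -0.17) and ACTG1 48669 and 45073 (-0.21).

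**Figure D3:**
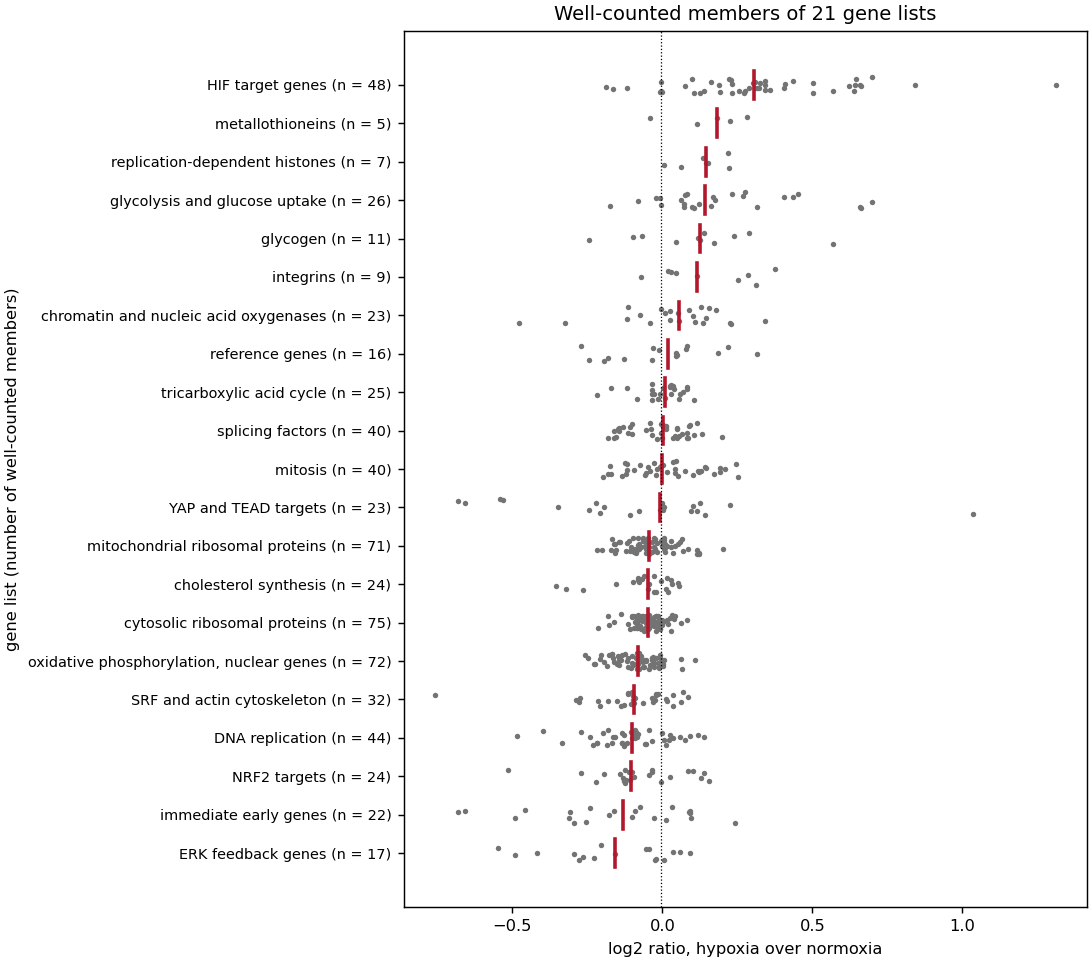
Log2 ratio (horizontal axis) of each well-counted named member of 21 gene lists, 1 grey point per gene, offset vertically at random within its row so that points can be told apart; the red bar is the list's median and the dotted line the median of all well-counted genes. The HIF targets have the highest median at 0.31 and the ERK feedback genes the lowest of those drawn at -0.16, and single members such as IGFBP3 in the YAP and TEAD list lie far from their list.

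Cell cycle lists differed in their medians. Of 44 DNA replication genes 34 lay below 0 (52.1% of all genes), the interval of 18 was wholly below 0 (17.6%), 4 were lower by 1.2-fold (3.70%) and 0 higher, and the median was -0.10. E2F1, which drives S phase genes, had 1084 and 831 counts (-0.49, -0.62 to -0.35). The helicase loading and activation factors CDC45 (778 and 634, -0.40), MCM10 (344 and 293, -0.33) and CDT1 (799 and 710, -0.27) were next. Of 40 mitotic genes 20 lay on each side of 0, none passed 1.2-fold and the median was -0.0015. KIF4A (1796 and 2294 counts, 0.25) and ESPL1 (1650 and 1544, -0.20) were their extremes. The 7 well-counted replication-dependent histone genes all lay above 0 (47.9% of all genes), at most 0.22 for H2BC5 (1256 and 1573 counts). But 41 of the 48 in the table were below the count limit, so this direction covers few of them. How fully the mRNA library kit captures histone transcripts was not tested. Among G1 regulators CCNG2, an inhibitory cyclin, was at 0.34 (692 and 941 counts), and CCND1 and the pocket protein RBL1 (416 and 369) both at -0.28.

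Of the stress lists other than HIF, NRF2 targets lay lowest. Their median was -0.10, with 18 of 24 below 0 (52.1% of all genes) and the interval of 12 wholly below 0 (17.6%). OSGIN1 was the 1 gene past 1.2-fold, against 6.80% of all genes in either direction. The ferritin heavy chain FTH1, with 111792 and 128834 counts, was at 0.10. ATF4 targets had a median of 0.02 over 20, with STC2, a relative of STC1, highest (1636 and 2198, 0.32). Endoplasmic reticulum chaperones had a median of 0.01 over 19, with the oxidase ERO1A highest (1640 and 2068, 0.23) and SDF2L1 lowest (724 and 555, -0.49). p53 targets had a median of 0.03 over 19, from AEN (455 and 365, -0.42) to GDF15 (303 and 419, 0.37). Of the heat shock proteins HSPA8 was at 0.18 (26381 and 31980 counts) and the mitochondrial co-chaperonin HSPE1 at -0.37 (588 and 489).

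Genes of cell shape and adhesion also differed member by member. Integrins had 8 of 9 well-counted members above 0 (47.9% of all genes) and a median of 0.12. ITGB4, a hemidesmosome subunit, was at 0.38 (6967 and 9707 counts, 0.33 to 0.42), ITGA2 at 0.31 and ITGB3 at 0.29. The desmosome genes DSP (5161 and 7338, 0.41) and DSG2 (1828 and 2393, 0.29) were higher by 1.2-fold (3.10% of all genes). The keratins KRT7 (25803 and 20530, -0.43, -0.46 to -0.41), KRT80 (1702 and 1444, -0.34) and KRT81 (391 and 333, -0.33) and the claudin CLDN3 (-0.37) were lower by 1.2-fold (3.70%). KRT8 with 63886 and 63715 counts and KRT18 with 30866 and 30125 were at -0.11 and -0.14. Of 13 mesenchymal genes the transcription factor SNAI1 was highest (623 and 862 counts, 0.37), VIM was at 0.17 (72840 and 88287) and the receptor AXL lowest (1546 and 1436, -0.21). Among proteases the lysosomal cathepsin CTSL (3384 and 4746, 0.39) and the collagenase MMP13 (1131 and 1531, 0.33) were higher by 1.2-fold (3.10% of all genes). The plasminogen activator PLAU was at -0.22 (5904 and 5458). For collagen the oxygen-dependent enzymes P4HA1, the lysyl oxidase LOX (834 and 1135, 0.34) and PLOD2 (3064 and 3832, 0.22) were highest, while LOXL4 was lowest (-0.28) and P3H3 and P3H4 were both at -0.26.

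Immune, Notch and TGF-beta genes differed by list and by member. Interferon-stimulated genes had a median of 0.11 over 23, with 15 above 0 (47.9% of all genes). STAT2 (1291 and 1715 counts, 0.31) was the 1 past 1.2-fold, against 6.80% of all genes in either direction. Antigen presentation genes had a median of -0.03 over 16. Of 10 Notch pathway genes 3 were lower by 1.2-fold (3.70% of all genes), the ligand JAG2 (860 and 676, -0.45) and the targets NRARP (281 and 219, -0.46) and HES4 (291 and 244, -0.36), and the receptor NOTCH2 was at 0.21 (2468 and 3066). In the TGF-beta list TGFB3 was highest (216 and 311, 0.42) and TGFB2 was at -0.24 (742 and 673). Chromatin and nucleic acid oxygenases, which like EGLN enzymes use oxygen, had a median of 0.05 over 23, with KDM3A highest and RIOX1 (470 and 362 counts, -0.48) and TET3 (400 and 343, -0.32) lowest.

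Ratios of the gene expression machinery were small. Medians were -0.05 for 75 cytosolic ribosomal proteins, -0.05 for 71 mitochondrial ribosomal proteins, -0.05 for 39 ribosome biogenesis genes, -0.05 for 31 proteasome subunits and 0.00034 for 40 splicing factors, and no member of these lists passed 1.2-fold. Cytosolic ribosomal proteins, with a median implied length of 1110 bases, had 65 of 75 below 0 (52.1% of all genes) and the interval of 45 wholly below 0 (17.6%). With the length trend removed their median was 0.011. The 16 usual reference genes had a median of 0.02 and ran from -0.27 (GUSB, 1120 and 997 counts) to 0.31 (PGK1, itself a HIF target), so they were not level with each other.

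Ratios moved with gene length across the set. Genes were split by length into 5 groups of equal size. Among the shortest group (303 to 2204 bases) the median log2 ratio was -0.06, with the interval wholly above 0 for 6.22% and wholly below 0 for 31.2%. Among the longest group (7051 to 44221 bases) the median was 0.05, with 25.3% above and 8.21% below. Across the 9563 genes, which share the same 2 libraries and are not replicates, the correlation of log2 ratio with log2 length was 0.26. The length trend ran from -0.08 to 0.13 on the log2 scale, small beside the called genes and as large as many list medians. The called genes were spread over lengths, with 3, 3, 6, 5 and 3 higher and 3, 3, 0, 0 and 1 lower from the shortest group to the longest. By level, the SD of the ratios was 0.18 in the group with the fewest counts and 0.11 in the group with the most, again of 5. Chromosome medians ran from -0.07 for chromosome 19 (683 genes) to 0.03 for chromosome 13 (115 genes).

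**Figure D4:**
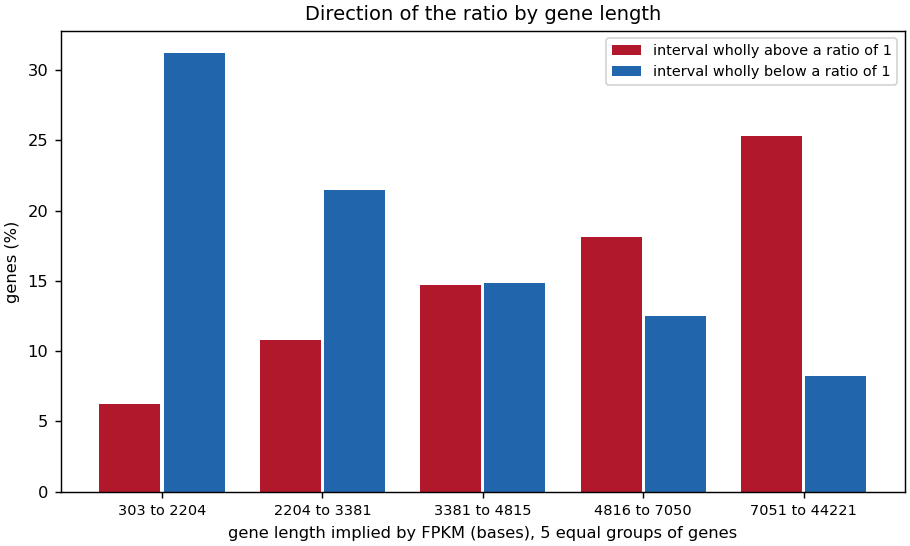
Percentage of genes (vertical axis) whose 95% counting interval lay wholly above (red) or wholly below (blue) a ratio of 1, for 5 equal groups of the well-counted genes by implied gene length in bases (horizontal axis). The red bars go from 6.22% to 25.3% and the blue bars from 31.2% to 8.21% as length increases.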

How the data were processed

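The authors deposited raw read counts per gene for 1 normoxia and 1 hypoxia RNA-seq library, and FPKM for the same genes. Per the labels' protocols, TRIzol RNA went into a stranded mRNA library kit. HISAT2, HTSeq, Cufflinks, Trimmomatic and Bowtie, with build GRCh38, appear in the submitters' processing notes. Their roles, versions and any use of strand are not stated there. The FPKM the authors deposited equal counts over the table total and a whole gene length (within 0.01 bases for 100% of genes), and gave the lengths used. The miRNA-seq files were not used here.

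Ratios are of CPM on the column totals, with exact conditional (Clopper-Pearson) 95% intervals, in Python 3.11.15 with scipy 1.17.1. One count equals 0.0567 CPM in normoxia and 0.0528 in hypoxia. With 1 library per condition the intervals describe counting error alone. No molecular identifiers mark single molecules, so repeated reads of 1 molecule count separately and the intervals may be too narrow even for counting error. Calls needed 1.5-fold and an interval excluding 1. They were checked on counts simulated with counting error alone, so the check says nothing about variation between cultures or libraries. With no replicates no count model was fitted. edgeR 4.0.16 and DESeq2 1.42.0 supplied alternative scaling only, and statsmodels 0.14.6 the length trend. Entrez identifiers of 9562 of 9563 genes matched RefSeq (GRCh38.p14), which also gave the promoter sequences, with windows for 7981 of the genes.

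The genes and the 54 gene lists were chosen with earlier results of these data known. Lists share members, so 1 gene can count in several of them. Genes named were the 25 highest and 25 lowest ratios, the 3 highest and 3 lowest members of each list, the 10 with most counts, a fixed set and the genes at the count limit, without sex-linked second copies; some are not reported here. Other list members, and overlapping genes, were named after their values were seen. Alternatives were other scalings, FPKM with a pseudocount of 1, length correction, other count limits and other folds.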

Additional observations from a re-analysis of the deposited data

How the results depend on the processing

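The numbers of genes called higher (20) and lower (7) depend on the count limit and the fold and little on scaling. TMM and DESeq2 scaling gave 21 and 7, upper quartile 20 and 7, FPKM with a pseudocount of 1 16 and 6, and length correction 21 and 6, of which 17 and 6 were among the original calls. In the order higher then lower, a limit of 100 counts gave 29 and 22, 500 counts 14 and 4, 1000 counts 11 and 2, no limit 177 and 184, and 200 counts in at least 1 library 27 and 11. A fold of 1.2 gave 296 and 354, a fold of 2 gave 2 and 0, and no fold 1436 and 1687, while an interval wholly beyond 1.2 kept all 20 and 7. Leaving out the second-copy entry and C4A, a choice made after seeing the data, gave 18 and 7 over 9561 genes. SLC2A3 was kept in this setting although SLC2A14 is nearly identical to it.

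Of 510 list medians under other settings 508 stayed between the median lower and the median upper interval bound of the list's members. Such a band is about as wide as a single gene's interval, for instance -0.18 to 0.02 for oxidative phosphorylation, so smaller moves went unmarked. The cytosolic ribosomal protein median turned from -0.05 to 0.011 with length correction, which removes the trend of short genes, and the circadian clock median was 0.32 at a limit of 1000 counts, where fewer of its 13 genes remain. Of 1700 values of single named genes 33 left their interval and none of the called ones changed sign. The last was fixed beforehand. Other scalings shifted log2 ratios by at most 0.011 and the length trend by at most 0.13, too little to turn a 1.5-fold ratio, and a pseudocount cannot turn one. With 1 library per condition, leaving out a replicate could not be done. No paired analysis was possible because each condition has 1 library and no test was run.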

Other observations

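Transcription factor families, as the authors' deposited annotation assigns them to 437 well-counted genes, were close to the background, and were looked at after the other results. Of 8 families with 10 or more members the medians ran from -0.07 (ZBTB, 12 genes, 3 above 0) to 0.10 (Homeobox, 11 genes, 8 above 0). Of all well-counted genes 47.9% lay above 0. The ETS family had 10 of 14 genes above 0 and a median of 0.09, with the epithelial factor ELF3 highest at 0.29 (1191 and 1563 counts). The zf-C2H2 family had 50 of 80 above 0 and a median of 0.03, from ZNF37A at -0.38 to KLF3 at 0.39. In the ZBTB family the repressor BCL6 stood apart from its relatives at 0.48 (556 and 834 counts).

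The deposited pathway annotation gave 253 pathways with 20 or more well-counted genes, with medians between -0.09 and 0.08. The highest was hematopoietic cell lineage (20 genes, 15 above 0 against 47.9% of all genes, IL1R1 highest). The lowest was drug metabolism by other enzymes (38 genes, 11 above 0, median -0.09). Near the lower end stood glutathione metabolism (36 genes, median -0.07) and pyrimidine metabolism (42 genes, median -0.07). These were picked by rank after the values were seen. Outside all lists, the oxygen-using cytochrome CYP1B1 had 3910 counts in normoxia and 6003 in hypoxia (log2 0.52, 0.46 to 0.57), the highest ratio among genes with as many counts in normoxia.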
